A study of Rattus norvegicus with 12 samples.

Results

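The proteasome genes of the rat were followed in the heart and the blood of animals given amiodarone. They were taken as all non-control probes of the array whose gene name begins with Psma, Psmb, Psmc, Psmd or Psme, which gave 52 of 41012 probes and 43 genes. By name these comprised 7 alpha ring subunits, 7 constitutive beta ring subunits, 3 immunoproteasome subunits and Psmb11 of the 20S core, 6 ATPases and 11 other subunits of the 19S regulatory particle, 3 chaperones of 19S assembly and 4 activators. The name rule also took in Psmc3ip, a recombination protein that is no subunit. Of the 43 genes, 42 were bright enough to be tested, each by the same probe in every comparison. Psmb11, the catalytic subunit of the thymus, was not well above background on any array and is not described further.

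The proteasome is the chamber in which cells break down proteins tagged with ubiquitin. The 20S core stacks rings of alpha subunits, which gate the chamber, on rings of beta subunits, of which Psmb5, Psmb6 and Psmb7 cut peptide bonds with chymotrypsin-like, caspase-like and trypsin-like preference. Immune cells, and other cells under interferon, build cores with Psmb8, Psmb9 and Psmb10 in place of Psmb5, Psmb6 and Psmb7, which favours peptides that fit class I major histocompatibility molecules. The 19S particle recognises ubiquitin chains, unfolds the substrate with its ring of ATPases and feeds it into the core, while the Psme proteins cap the core without ubiquitin. In heart muscle the proteasome turns over contractile and damaged proteins, and red cell precursors use it while they discard their proteins during maturation.

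Left ventricle and whole blood of male Sprague-Dawley (CD) rats were profiled on single-colour Agilent arrays, 1 array for each of 12 pools of RNA. Amiodarone, an antiarrhythmic drug, was given by mouth at 300 mg/kg per day for 10 days, and controls received the vehicle, 1% methylcellulose. Each of the 4 groups (vehicle heart, amiodarone heart, vehicle blood and amiodarone blood) had 3 pools. The rats carried no engineered allele according to the labels, weighed 290 to 320 g at the start, and are labelled both as 10 weeks old at the start and as 11 weeks old. Which rats made up a pool is not stated, so the p-values measure the spread between these pools, which may be technical. Heart and blood RNA were extracted with different kits and hybridised on different slides, so a tissue difference cannot be told apart from those of kit and slide.

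A level below is the log2 of a probe's processed signal over the 75th percentile of the signals on its own array, and a difference is one mean level minus another, with n = 3 pools per group. Levels of different probes are not comparable with each other, since probes bind with different strength. Of 43379 spots, 21233 to 25032 were well above background in heart, 14459 to 15548 in vehicle blood and 20625 to 21245 in amiodarone blood. In vehicle blood the 75th percentile itself was 24.0 ± 2.80 (SD, n = 3), and amiodarone blood had 73.8 ± 15.6 (SD, n = 3), so the dim spots of vehicle blood lay closest to background. In the 10 cardiomyocyte markers the summed signal relative to the 75th percentile was 9000 to 12606 in vehicle heart and 6.34 to 7.75 in vehicle blood, where 7 of the 10 were well above background on no array. Summed signal of the 10 red cell markers was 11661 to 19155 in vehicle blood and 73.4 to 106 in vehicle heart.

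Without drug, the heart pools carried more signal for most of the constitutive proteasome, and the blood pools for the immunoproteasome, 2 subunits of the 19S particle and 1 chaperone of its assembly. Of 42 members tested, 35 were higher and 6 lower in vehicle heart than in vehicle blood (limma, Benjamini-Hochberg adjusted p below 0.05), against a background of 81.9% of 18506 features past the same threshold, 46.5% higher and 35.5% lower. The median difference, heart minus blood, was 1.47 over the members and 0.42 over all features. Psmd6 and Psmc3ip, which is no subunit, count among the 35 but were well above background on 1 of 3 vehicle blood arrays. Among the 40 members well above background on every array, 33 were higher and 6 lower, beside 85.1% of such features called. Vehicle heart and vehicle blood pools did not overlap for 41 of 42 members, compared with 83.9% of features. A difference of this kind in bulk tissue cannot tell fewer cells of a type from less RNA per cell. The 6 members lower in heart were Psmb8, Psmb9, Psmb10, Psmd4, Psmd8 and Psmd9, and no alpha ring, constitutive beta ring, ATPase or activator gene was among them.

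**Figure D1:**
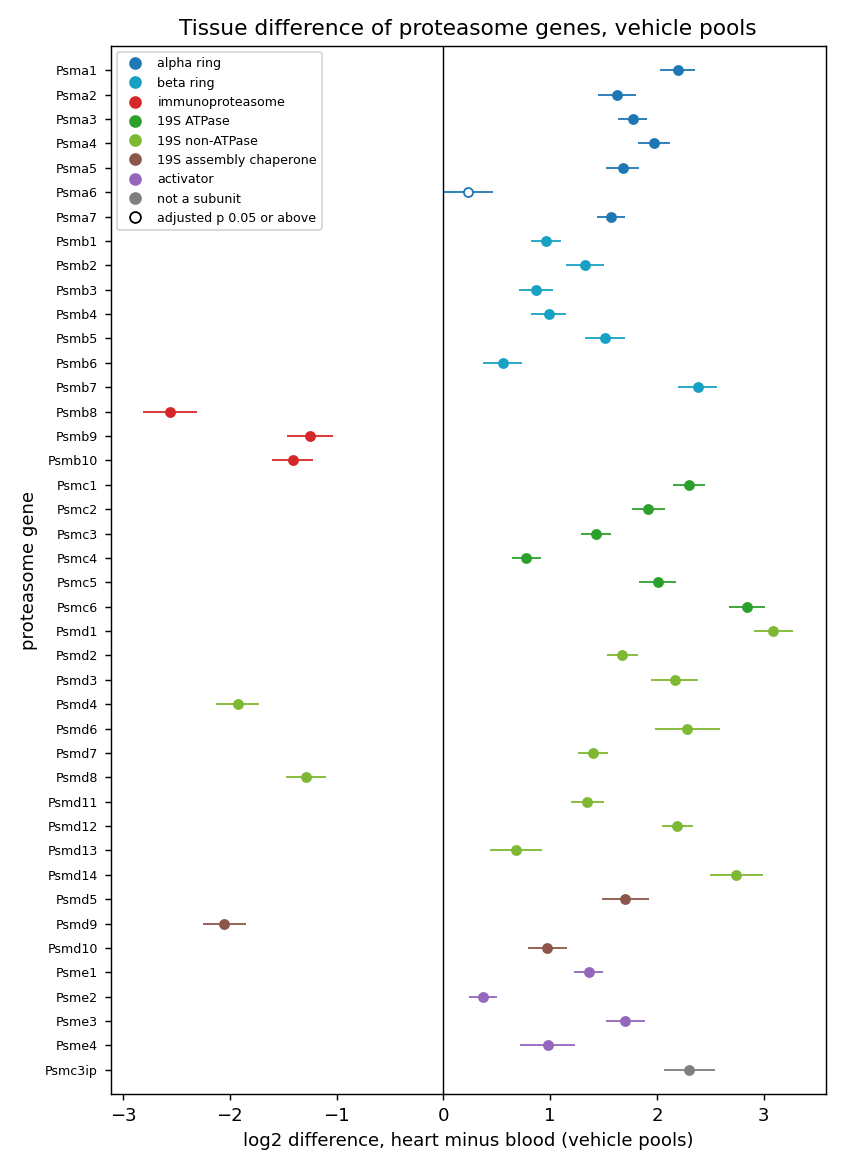
Difference in level between vehicle heart and vehicle blood pools (x axis, log2, heart minus blood) for the 42 tested members (y axis, grouped by role and coloured as in the key). Points are limma estimates and bars are standard errors, with 3 pools per group; open points did not pass the threshold. The 3 immunoproteasome subunits, Psmd4, Psmd8 and Psmd9 lie left of 0; Psmb9, Psmb10, Psmd4, Psmd8 and Psmd9 move right of 0 without array scaling or with spike-in scaling.

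The catalytic subunits are described first, and the probes that read 5 of the 6 are printed here because the comparison of replaced and replacing subunits rests on them. Positions are those of rat build rn4 in the deposited files, and the 60 bases are printed 5′ to 3′ as the files give them, all in lower case.
Psmb5: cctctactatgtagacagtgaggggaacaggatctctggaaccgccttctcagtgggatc
Psmb8: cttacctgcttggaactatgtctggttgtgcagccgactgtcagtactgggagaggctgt
Psmb6: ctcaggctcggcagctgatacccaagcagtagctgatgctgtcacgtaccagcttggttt
Psmb9: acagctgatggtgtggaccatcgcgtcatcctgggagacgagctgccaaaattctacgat
Psmb7: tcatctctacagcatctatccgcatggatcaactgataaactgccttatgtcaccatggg
The Psmb5 probe lies at chr15:32690134-32690193, Psmb8 at chr20:4787980-4788039, Psmb6 at chr10:57371368-57371427 and Psmb9 at chr20:4806341-4806400. The Psmb7 probe is placed over chr3:18413231-18433105, a span longer than its 60 bases, which was so for 21 of the 52 member probes. Psmb10 was read by a probe at chr19:35777711-35777770.

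Psmb5, which carries the chymotrypsin-like site, had levels of 6.74, 6.43 and 6.48 in the vehicle hearts, 6.59, 6.74 and 6.41 in the amiodarone hearts, 4.76, 4.95 and 5.40 in vehicle blood and 5.06, 4.94 and 4.94 in amiodarone blood. Its replacement Psmb8 had levels of 1.96, 2.26 and 1.85 in the vehicle hearts, 1.23, 2.27 and 1.82 in the amiodarone hearts, 4.77, 4.75 and 4.24 in vehicle blood and 5.22, 5.23 and 5.31 in amiodarone blood. Every vehicle heart pool stood above every vehicle blood pool for Psmb5 and below every one for Psmb8. The difference, heart minus blood, was 1.51 for Psmb5 (SE 0.19, adjusted p = 9.7e-06) and -2.56 for Psmb8 (SE 0.25, adjusted p = 1.3e-06). Psmb8 kept its sign under each scaling tried, although it was only -0.05 without scaling.

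Psmb6, with the caspase-like site, had levels of 4.85, 4.70 and 4.90 in the vehicle hearts, 4.80, 4.91 and 4.80 in the amiodarone hearts, 3.91, 4.26 and 4.62 in vehicle blood and 3.22, 3.43 and 3.46 in amiodarone blood. Psmb9, which replaces it, had levels of 4.25, 4.16 and 4.06 in the vehicle hearts, 3.77, 4.60 and 3.68 in the amiodarone hearts, 5.42, 5.39 and 5.41 in vehicle blood and 5.95, 5.99 and 5.98 in amiodarone blood. The gap between tissues was smaller for both genes of this pair: 0.55 for Psmb6 (SE 0.18, adjusted p = 0.014) and -1.25 for Psmb9 (SE 0.22, adjusted p = 0.00018), with no overlap of the vehicle groups. Psmb9 in the 3 vehicle blood pools differed by an SD of only 0.01. Its direction turned to 1.26 without scaling, 1.01 with spike-in scaling, 0.07 after another background correction (normexp) and 0.41 in the authors' value table, in which the tissues were normalised separately.

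Psmb7, with the trypsin-like site, had levels of 4.72, 4.53 and 4.86 in the vehicle hearts, 4.76, 4.75 and 4.89 in the amiodarone hearts, 2.23, 2.10 and 2.62 in vehicle blood and 2.55, 2.30 and 2.73 in amiodarone blood. Psmb10, its replacement, had levels of 5.01, 4.78 and 4.59 in the vehicle hearts, 4.66, 5.07 and 4.31 in the amiodarone hearts, 6.20, 6.20 and 6.21 in vehicle blood and 6.63, 6.68 and 6.61 in amiodarone blood. Psmb7 was higher in vehicle heart by 2.38 (SE 0.18, adjusted p = 1.4e-07) and Psmb10 lower, at -1.41 (SE 0.19, adjusted p = 2.6e-05), again without overlap. Psmb10 turned to 1.1 without scaling, 0.85 with spike-in scaling and 0.30 in the authors' value table.

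The difference between a replacing and a replaced subunit on the same array cancels any single factor applied to the whole array, though not quantile normalisation or another background correction, and only its change between groups is read here. Psmb8 minus Psmb5 was -4.78, -4.17 and -4.63 in vehicle heart and 0.00, -0.20 and -1.16 in vehicle blood, a change of 4.07 (16.8-fold) towards Psmb8 in blood. Psmb9 minus Psmb6 was -0.60, -0.54 and -0.83 in vehicle heart and 1.51, 1.14 and 0.79 in vehicle blood, a change of 1.80 (3.49-fold). Psmb10 minus Psmb7 was 0.29, 0.25 and -0.27 in vehicle heart and 3.97, 4.10 and 3.58 in vehicle blood, a change of 3.79 (13.9-fold). All 3 pairs shifted towards the immunoproteasome subunit in blood without overlap. Each gave p = 0.1 in a two-sided exact permutation test (adjusted p = 0.18 over 9 such tests), the smallest p that 3 against 3 pools allow.

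**Figure D2:**
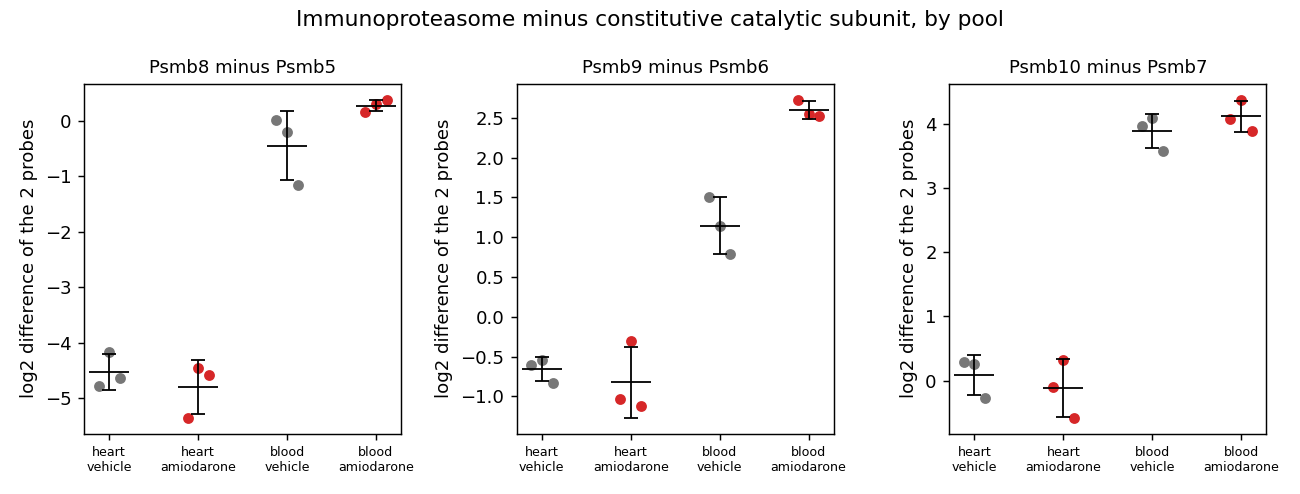
Level of the immunoproteasome probe minus that of the constitutive probe it replaces (y axis, log2) in each pool of the 4 groups (x axis). Points are pools, long bars group means and whiskers SD (n = 3). In all 3 panels the blood pools lie above the heart pools, and amiodarone blood lies above vehicle blood without overlap for Psmb8 minus Psmb5 and Psmb9 minus Psmb6 but not for Psmb10 minus Psmb7.

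Of the alpha ring genes 6 of 7 were higher in vehicle heart, with a median difference of 1.68. All 7 beta ring genes were, with a median of 0.99, and those without a catalytic site, Psmb1 to Psmb4, lay between 0.87 and 1.32. Psma6 was the exception at 0.23 (95% interval -0.29 to 0.75, adjusted p = 0.38), and it is named because it was the only member that did not pass. A second, dimmer Psma6 probe differed by 0.42 and did pass in a limma fit of every kept probe (adjusted p = 0.022). All 6 ATPases, which unfold substrates, were higher in heart by 0.78 to 2.84. Psmc6 had levels of 4.47, 4.34 and 4.46 in the vehicle hearts, 4.84, 4.70 and 4.55 in the amiodarone hearts, 1.34, 1.51 and 1.90 in vehicle blood and 2.23, 2.37 and 2.33 in amiodarone blood, so that the tissues were far apart, and its difference was 2.84 (SE 0.17, adjusted p = 1.5e-08). A second Psmc6 probe differed by 3.16.

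Among the 11 other 19S subunits 9 were higher in vehicle heart, Psmd6 among them although it was dim in vehicle blood. Psmd1, a large scaffold subunit to which ubiquitin-binding factors dock, had levels of 7.47, 7.26 and 7.44 in the vehicle hearts, 7.49, 7.64 and 7.57 in the amiodarone hearts, 4.10, 4.14 and 4.66 in vehicle blood and 5.50, 5.12 and 5.36 in amiodarone blood. It gave the largest difference of any member, 3.09 (SE 0.18, adjusted p = 1.4e-08), and a second Psmd1 probe gave 2.83. Psmd4, the subunit that binds ubiquitin chains, ran the other way, with levels of 6.01, 5.80 and 5.88 in the vehicle hearts, 6.12, 6.42 and 6.33 in the amiodarone hearts, 7.54, 7.85 and 8.08 in vehicle blood and 6.22, 6.48 and 6.84 in amiodarone blood. Vehicle blood exceeded vehicle heart in every pool, at -1.93 heart minus blood (SE 0.20, adjusted p = 2.1e-06). The call was lost after normexp, at -0.80 (adjusted p = 0.052), and in the authors' value table, at -0.15 (adjusted p = 0.41). Psmd8, a structural subunit of the 19S lid that was chosen for this comparison after its values were seen, had levels of 3.32, 3.20 and 3.43 in the vehicle hearts, 3.33, 3.60 and 3.67 in the amiodarone hearts, 4.40, 4.52 and 4.89 in vehicle blood and 2.94, 3.35 and 3.39 in amiodarone blood, and its difference was -1.29 (SE 0.19, adjusted p = 4.6e-05).

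Of the 3 assembly chaperones, which help to build the 19S base and then leave, Psmd5 and Psmd10 were higher in vehicle heart and Psmd9 was lower. Psmd9 had levels of 3.84, 3.76 and 3.77 in the vehicle hearts, 3.49, 3.76 and 3.56 in the amiodarone hearts, 5.44, 5.82 and 6.27 in vehicle blood and 4.57, 4.69 and 4.89 in amiodarone blood. Its difference was -2.05 (SE 0.20, adjusted p = 1.4e-06). Psmd4, Psmd8 and Psmd9 depended on scaling in the same way as Psmb9 and Psmb10. Without scaling the differences were 0.59 for Psmd4, 1.23 for Psmd8 and 0.46 for Psmd9, when the median of all features was 2.94 and no member was called lower in heart. After normexp, and in the authors' value table, 36 members were called higher and 2 lower, beside 81.1% and 90.9% of all features called. The 2 lower were Psmb8 and Psmd9 in both. Taken relative to the mean of the members on each array, all 6 were lower in heart. In that setting 19 members were called higher and 11 lower, beside 77.8% of all features called.

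The activators were all higher in vehicle heart, by 0.37 to 1.70. Psme1 and Psme2 form a ring cap that interferon induces. Psme1 had levels of 6.38, 6.16 and 6.28 in the vehicle hearts, 6.17, 6.27 and 6.30 in the amiodarone hearts, 4.95, 4.89 and 4.90 in vehicle blood and 5.00, 5.11 and 5.23 in amiodarone blood. Psme2 had levels of 4.27, 4.23 and 4.22 in the vehicle hearts, 4.36, 4.43 and 4.19 in the amiodarone hearts, 3.84, 3.93 and 3.83 in vehicle blood and 4.35, 4.47 and 4.40 in amiodarone blood. The pools of the tissues were apart for both, but the difference was 1.36 for Psme1 (SE 0.14, adjusted p = 1.7e-06) and only 0.37 for Psme2 (SE 0.13, adjusted p = 0.022). Psme3, a nuclear cap, had levels of 4.33, 4.13 and 4.24 in the vehicle hearts, 4.46, 4.55 and 4.30 in the amiodarone hearts, 2.73, 2.14 and 2.73 in vehicle blood and 2.92, 2.82 and 2.80 in amiodarone blood, a difference of 1.70 (SE 0.18, adjusted p = 2.6e-06). Psme4, a large single-chain activator linked to histone breakdown, had levels of 2.49, 2.59 and 2.59 in the vehicle hearts, 2.35, 2.14 and 2.03 in the amiodarone hearts, 1.29, 1.53 and 1.92 in vehicle blood and 2.56, 1.77 and 2.83 in amiodarone blood, a difference of 0.98 (SE 0.26, adjusted p = 0.0038). Relative to the mean of the members the sign of Psme2 turned, to -0.84, and that of Psme4 to -0.23.

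In blood, amiodarone pools had higher levels of the immunoproteasome and of most 19S ATPases and lower levels of Psmd4, Psmd8, Psmd9 and Psmb6. Of 42 members, 19 rose and 4 fell, beside 68.2% of 15652 features called, 41.5% higher and 26.6% lower, so the share of members that rose is close to that of all features and the share that fell is below it. The median difference, amiodarone minus vehicle, was 0.39 over the members and 0.46 over all features. Groups did not overlap for 33 of 42 members, against 74.2% of features. By role, 2 of 7 alpha ring and 2 of 7 beta ring genes rose, all 3 immunoproteasome subunits, 5 of 6 ATPases, 4 of 11 other 19S subunits, 1 of 3 chaperones and 2 of 4 activators. These counts depend on the treatment of background and scale. After normexp no member passed in limma, with 2 higher and 3 lower at an unadjusted p below 0.05, and 1231 of all features were called. Without scaling, when the median of all features was 2.05, 38 members were called higher and none lower, beside 77.3% of all features called.

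The 3 immunoproteasome subunits, which were among the 6 members with higher levels in vehicle blood than in vehicle heart, rose by 0.67 for Psmb8 (SE 0.20, adjusted p = 0.021), 0.56 for Psmb9 (SE 0.15, adjusted p = 0.015) and 0.44 for Psmb10 (SE 0.15, adjusted p = 0.037). Every amiodarone blood pool stood above every vehicle blood pool for each of them. These rises lie near the median of all features, and relative to the mean of the members they were 0.38, 0.27 and 0.15, none past the threshold. None of the 3 passed in every fit with a pool left out, where the highest adjusted p was 0.069, 0.052 and 0.093. Of their constitutive counterparts, Psmb5 differed by -0.06 (95% interval -0.55 to 0.43) and Psmb7 by 0.21 (95% interval -0.30 to 0.71), with overlapping groups. Psmb6 fell by 0.89 (SE 0.22, adjusted p = 0.010) without overlap. Psmb5 and Psmb6 turned to 1.53 and 0.69 without scaling.

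The pair differences place these changes on a scale that a factor common to an array cannot move. Psmb9 minus Psmb6 rose from the vehicle values above to 2.73, 2.55 and 2.52 in amiodarone blood, by 1.46 (2.74-fold). Psmb8 minus Psmb5 was 0.16, 0.29 and 0.37, higher than in vehicle blood by 0.73 (1.65-fold). Psmb10 minus Psmb7 was 4.08, 4.38 and 3.89 and overlapped the vehicle pools, with a change of 0.23. The exact permutation p was 0.1 for the Psmb9 and Psmb8 pairs and 0.5 for the Psmb10 pair (adjusted p = 0.18, 0.18 and 0.70). The tissue and drug comparisons share the vehicle blood pools. In the same blood pools the summed signal of 6 general leukocyte markers was 1016 to 1134 in vehicle and 1686 to 1833 in amiodarone, with 5 of 6 higher and Ptprc lower. Neutrophil markers summed to 64.4 to 112 in vehicle and 251 to 389 in amiodarone blood, monocyte and macrophage markers to 216 to 283 and 542 to 642, and natural killer cell markers to 60.4 to 75.9 and 142 to 166. Of 6 tested monocyte and macrophage markers 5 rose and 1 fell, at -2.20, beside 68.2% of all features called. B cell markers summed to 24.3 to 30.6 and 25.2 to 28.0, and 0 of 4 were called. The part of these cells in the immunoproteasome values was not tested.

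The 4 members that fell in blood were Psmb6 and the other members with higher levels in vehicle blood than in vehicle heart: the 19S subunits Psmd4 and Psmd8 and the assembly chaperone Psmd9. Psmd8 fell by 1.38 (SE 0.22, adjusted p = 0.0020), Psmd4 by 1.31 (SE 0.24, adjusted p = 0.0030) and Psmd9 by 1.13 (SE 0.24, adjusted p = 0.0061). Amiodarone blood lay below vehicle blood in every pool for all of them, and each remained past the threshold when any single pool was left out. For Psmd8 the amiodarone blood pools, at 2.94 to 3.39, overlapped the range of the hearts, as did those for Psmd4, while Psmd9 stayed above every heart pool. Red cell markers moved in the same pools: their summed signal was 11661 to 19155 in vehicle and 2926 to 5371 in amiodarone blood, 9 of 10 markers fell, and the median difference was -2.33. The part of red cells in the 4 falls was not tested. Without scaling the values were 0.21 for Psmd8, 0.27 for Psmd4, 0.46 for Psmd9 and 0.69 for Psmb6, none past the threshold. Relative to the mean of the members they were -1.67, -1.60, -1.42 and -1.19. In that setting 5 members were called lower and 2 higher, beside 55.4% of all features called.

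Among the rises outside the core, Psmc1, an ATPase whose tail helps to open the gate of the core, had levels of 5.94, 5.80 and 5.93 in the vehicle hearts, 6.28, 6.47 and 6.40 in the amiodarone hearts, 3.52, 3.45 and 3.81 in vehicle blood and 4.65, 4.42 and 4.45 in amiodarone blood. It rose in blood by 0.92 (SE 0.18, adjusted p = 0.0044), with the amiodarone pools all above the vehicle pools. Psmd1 rose by 1.02 (SE 0.22, adjusted p = 0.0059), and its second probe by 0.73. Psmd3, a scaffold subunit of the 19S lid, had levels of 3.15, 3.13 and 3.36 in the vehicle hearts, 2.61, 3.39 and 3.23 in the amiodarone hearts, 1.21, 1.19 and 0.74 in vehicle blood and 1.73, 1.98 and 1.82 in amiodarone blood, and it rose by 0.80 (SE 0.20, adjusted p = 0.010). Psmc6 rose by 0.72 (SE 0.20, adjusted p = 0.015), and its second probe by 0.69. These 4 genes, with the 4 that fell, were the 8 of 23 calls that passed whichever pool was left out.

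The activators gave 2 calls in blood. Psme2 rose by 0.54 (SE 0.16, adjusted p = 0.019), whereas its partner Psme1 differed by 0.20 (SE 0.16, adjusted p = 0.29). Psme4 rose by 0.81 (SE 0.31, adjusted p = 0.0496), although its groups overlapped, and its second probe, which was dim in vehicle blood, differed by 0.99. Psme3 differed by 0.32 (SE 0.21, adjusted p = 0.22). The number of blood calls was 9 without amiodarone pool 3, 11 without amiodarone pool 1 and 14 without vehicle pool 1 or vehicle pool 2, and in each of these settings the same number of members, 4, fell. Psmd6 and Psmc3ip were well above background on 1 of the 3 vehicle blood arrays, and neither was called. Psmd7 was not called by its brightest probe, at 0.29, but its dimmer probes rose by 0.64 and 1.17. Both passed in the limma fit of every kept probe (adjusted p = 0.015 and 0.011). The dimmest was well above background on 0 of the 3 vehicle blood arrays.

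**Figure D3:**
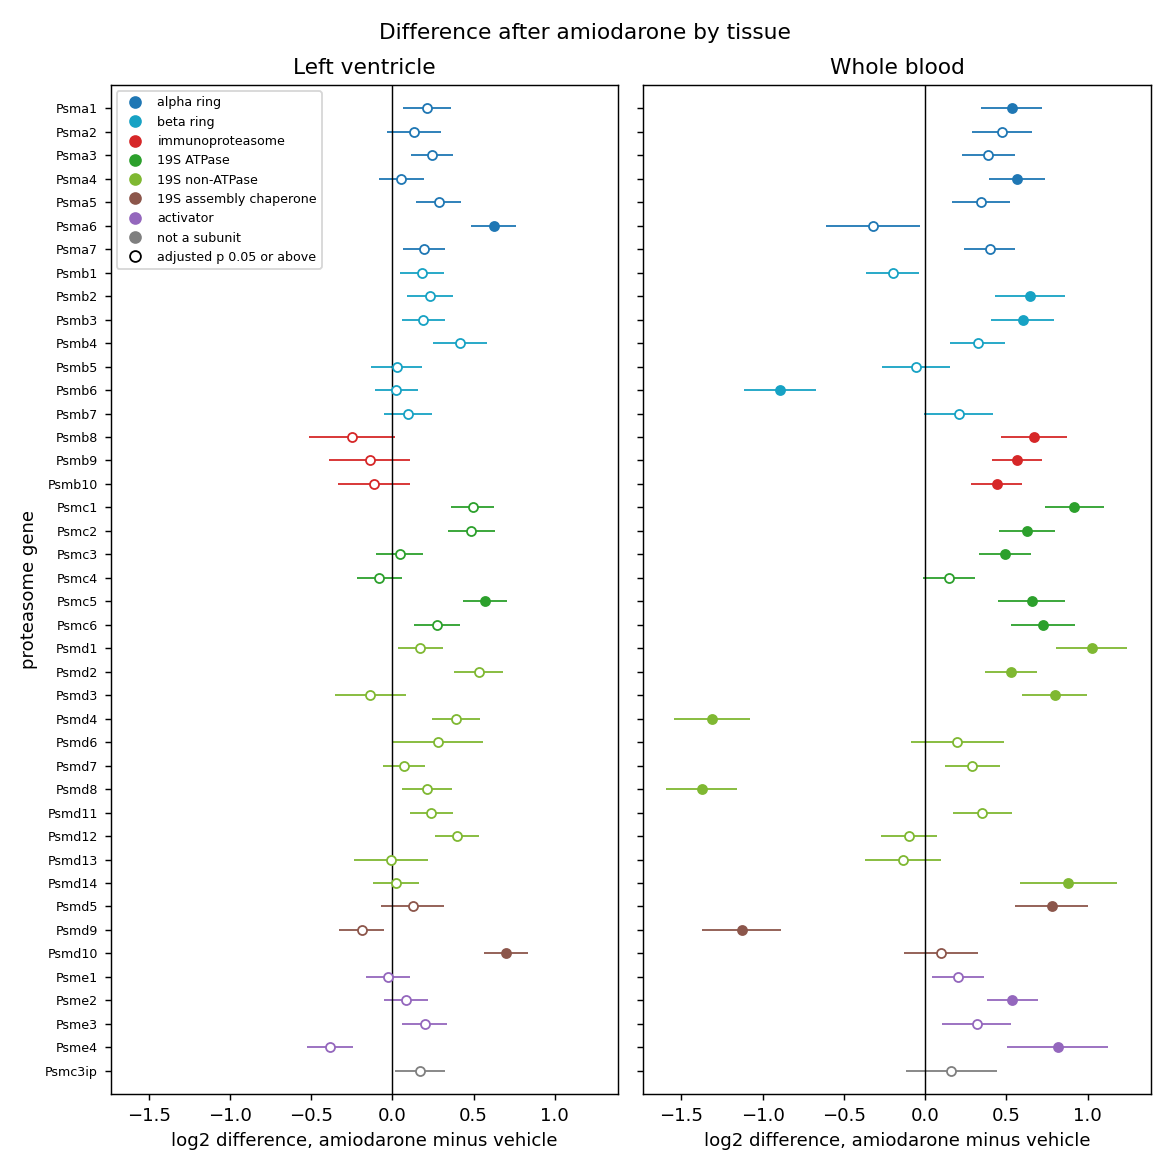
Difference in level after amiodarone (x axis, log2, amiodarone minus vehicle) in left ventricle and in whole blood for the 42 tested members (y axis, by role). Points are limma estimates with standard errors (3 pools per group), and open points did not pass the threshold. Heart values stay between -0.38 and 0.70; in blood Psmb6, Psmd4, Psmd8 and Psmd9 lie furthest left, and they move right of 0 without array scaling.

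In the left ventricle the proteasome changed little. Of 42 members, 3 rose and none fell, beside 8.46% of 17463 features called, 4.41% higher and 4.05% lower, and at an unadjusted p below 0.05 there were 9 higher and 1 lower. The median difference was 0.18 over members and 0.03 over all features. A positive value was found for 33 of 42 members, including all 14 constitutive core subunits, and for 9219 of 17463 features. In the authors' value table Psma4, Psmb5 and Psmb6 were negative, at -0.06, -0.08 and -0.07, and they were also negative after normexp. Without scaling, and relative to the mean of the members, Psma2, Psma4, Psmb5, Psmb6 and Psmb7 were negative. Groups did not overlap for 19 of 42 members, against 32.3% of features. Psmd10, an assembly chaperone of the ATPase ring also known as gankyrin, had levels of 1.82, 1.68 and 1.76 in the vehicle hearts, 2.57, 2.40 and 2.38 in the amiodarone hearts, 0.73, 0.48 and 1.12 in vehicle blood and 0.76, 0.74 and 1.12 in amiodarone blood. It rose by 0.70 (1.63-fold, SE 0.13, adjusted p = 0.022), with the amiodarone hearts above the vehicle hearts and in blood it differed by 0.10 (95% interval -0.43 to 0.63).

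Psma6, an alpha ring subunit, had levels of 7.64, 7.37 and 7.53 in the vehicle hearts, 8.14, 8.19 and 8.08 in the amiodarone hearts, 6.89, 7.08 and 7.88 in vehicle blood and 6.97, 6.74 and 7.18 in amiodarone blood. It rose in heart by 0.62 (1.54-fold, SE 0.14, adjusted p = 0.036). Its second probe differed by 0.57 and did not pass in the limma fit of every kept probe (adjusted p = 0.063). Psmc5, an ATPase, had levels of 7.28, 7.05 and 7.21 in the vehicle hearts, 7.73, 7.81 and 7.71 in the amiodarone hearts, 4.99, 5.05 and 5.48 in vehicle blood and 5.98, 5.64 and 5.87 in amiodarone blood, and rose by 0.57 (1.48-fold, SE 0.13, adjusted p = 0.044). None of the 3 calls passed in every fit with a pool left out: Psma6 and Psmc5 passed in 0 of 6 and Psmd10 in 2. Psmd2, not called with all pools, passed in 1 of these fits. The count was 0 without any one of the vehicle heart pools or without amiodarone pool 2, 1 without amiodarone pool 3 and 2 without amiodarone pool 1. It was also 0 without scaling, with spike-in scaling and relative to the mean of the members, beside 4.17%, 4.98% and 9.36% of features.

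The immunoproteasome subunits were not called in heart and had negative values: -0.25 for Psmb8 (95% interval -0.87 to 0.37), -0.14 for Psmb9 (95% interval -0.72 to 0.44) and -0.11 for Psmb10 (95% interval -0.63 to 0.40). Amiodarone heart pool 2 was the highest of its group for all 3, and without it the values were -0.50, -0.43 and -0.31. Without amiodarone heart pool 1 Psmb8 was 0.02, and without pool 3 Psmb9 was 0.03 and Psmb10 0.07. The constitutive partners lay near 0, at 0.03 for Psmb5, 0.02 for Psmb6 and 0.10 for Psmb7, with standard errors of 0.13 to 0.16. Psmb8 minus Psmb5 changed by -0.28, Psmb9 minus Psmb6 by -0.16 and Psmb10 minus Psmb7 by -0.21, with overlapping pools and exact permutation p of 0.6, 0.7 and 0.7. Among the activators Psme4 had the most negative value of all members, -0.38 (SE 0.14, adjusted p = 0.15), with no overlap, and Psme1, Psme2 and Psme3 lay between -0.02 and 0.20. Summed red cell signal in the hearts was 73.4 to 106 in vehicle and 20.9 to 23.7 in amiodarone pools, and of 9 tested markers 5 fell. Monocyte and macrophage markers summed to 42.0 to 59.5 in vehicle and 75.6 to 89.5 in amiodarone hearts, fibroblast markers to 250 to 334 and 138 to 187, and platelet markers to 12.8 to 13.5 and 18.3 to 23.0. Of the tested markers 2 of 7 monocyte and macrophage markers rose and 3 of 5 fibroblast markers fell, beside 8.46% of all features called. Of 4 platelet markers 2 rose and 1 fell. Neutrophil markers summed to 11.0 to 13.4 and 9.31 to 11.2, although 2 of 3 tested rose. The part of any of these cells in the heart values was not tested.

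The drug differences were then compared between the tissues. In 1 limma fit of the 12 arrays, the blood difference minus the heart difference passed the threshold for 8 of 42 members, beside 46.6% of 20029 features. It was above 0 for 3 members, with 21.9% of features, and below 0 for 5, with 24.6%. Psmd4 gave -1.70 (SE 0.29, adjusted p = 0.0012), since its heart value was 0.39 and its blood value a fall. Psmd8 gave -1.59 (SE 0.27, adjusted p = 0.0013), Psmd9 -0.94 (SE 0.29, adjusted p = 0.021), Psmb6 -0.92 (SE 0.26, adjusted p = 0.016) and Psma6 -0.94 (SE 0.34, adjusted p = 0.039). On the other side were Psme4 at 1.20 (SE 0.37, adjusted p = 0.021), Psmd3 at 0.93 (SE 0.31, adjusted p = 0.030) and Psmd1 at 0.85 (SE 0.26, adjusted p = 0.021).

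For the immunoproteasome the difference between the tissues was not established: Psmb8 gave 0.92 (SE 0.36, adjusted p = 0.054), Psmb9 0.70 (SE 0.31, adjusted p = 0.080) and Psmb10 0.55 (SE 0.28, adjusted p = 0.12). Without amiodarone heart pool 2 all 3 passed, at 1.17 (adjusted p = 0.019), 0.99 (adjusted p = 0.0062) and 0.75 (adjusted p = 0.039). That was the only 1 of 12 limma fits with a pool left out in which they passed. The highest adjusted p among these fits was 0.12 for Psmb8, 0.18 for Psmb9 and 0.26 for Psmb10. Psmd10 gave -0.60 (adjusted p = 0.083). After normexp no member passed, beside 8.97% of all features, with 2 above and 3 below 0 at an unadjusted p below 0.05. Without scaling, 37 members passed above 0 and none below, beside 63.9% of all features, and the median of all features was 1.80. With amiodarone blood pool 1 left out 5 members passed.

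**Figure D4:**
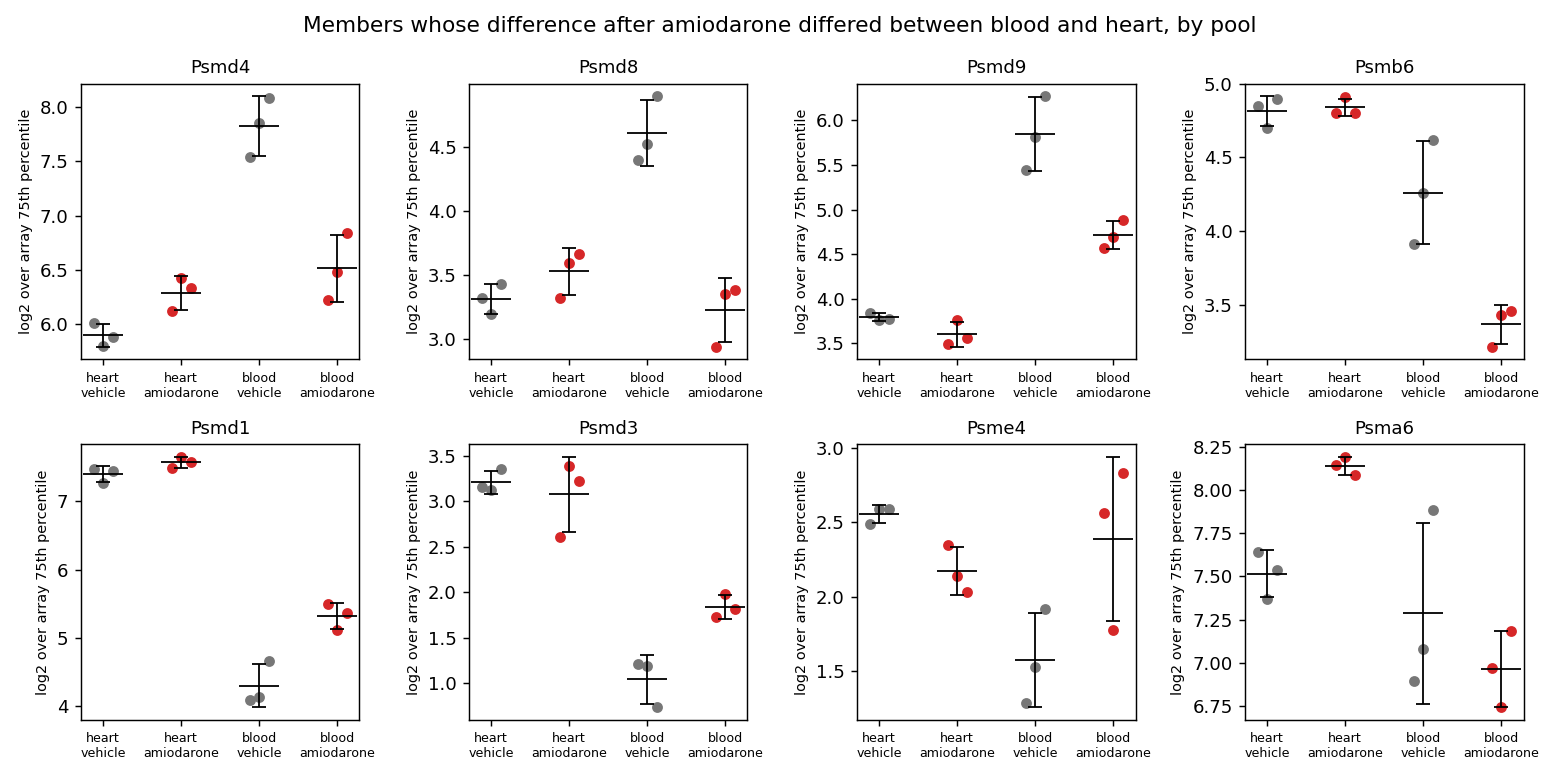
Level of the 8 members whose drug difference differed between blood and heart (y axis, log2 over the 75th percentile of the array, a separate scale in each panel) in every pool of the 4 groups (x axis). Points are pools, long bars means and whiskers SD (n = 3). Psmd4, Psmd8, Psmd9 and Psmb6 drop from vehicle to amiodarone blood, a drop that is absent without array scaling, while Psmd1 and Psmd3 are higher in amiodarone than vehicle blood. The heart difference of Psmd9, at -0.19, was not called (limma, adjusted p = 0.44).

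The promoters of the members that moved together were read from RefSeq (build GRCr8), which held 38 of the 43 genes. Only the 250 bases before the start site were searched, on both strands, for 3 short motifs: CCAAT, bound by NF-Y, the core of the antioxidant response element, TGACNNNGC, bound by the Nfe2l1 and Nfe2l2 family, and the gamma-interferon activated site, TTCNNNGAA. Matches of the 3 motifs can overlap. Capitals mark matches in the windows of the immunoproteasome subunits and of Psmd4, Psmd8 and Psmd9. The last 3 had higher scaled levels in vehicle blood than in vehicle heart and fell in blood after amiodarone.
Psmb8: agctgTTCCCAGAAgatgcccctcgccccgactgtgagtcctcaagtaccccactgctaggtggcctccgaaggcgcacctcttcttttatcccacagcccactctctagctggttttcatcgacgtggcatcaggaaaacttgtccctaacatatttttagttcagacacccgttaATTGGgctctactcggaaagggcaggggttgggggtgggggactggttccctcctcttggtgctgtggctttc
Psmb9: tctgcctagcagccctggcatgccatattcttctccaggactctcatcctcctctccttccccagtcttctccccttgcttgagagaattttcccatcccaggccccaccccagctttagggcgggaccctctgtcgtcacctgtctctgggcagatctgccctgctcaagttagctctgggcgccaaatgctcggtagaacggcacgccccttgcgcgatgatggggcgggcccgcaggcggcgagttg
Psmb10: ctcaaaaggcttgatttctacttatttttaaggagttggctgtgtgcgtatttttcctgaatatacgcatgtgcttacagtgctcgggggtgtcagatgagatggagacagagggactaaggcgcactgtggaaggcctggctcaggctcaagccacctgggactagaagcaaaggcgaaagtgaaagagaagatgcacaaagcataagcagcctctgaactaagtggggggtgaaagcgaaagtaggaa
Psmd4: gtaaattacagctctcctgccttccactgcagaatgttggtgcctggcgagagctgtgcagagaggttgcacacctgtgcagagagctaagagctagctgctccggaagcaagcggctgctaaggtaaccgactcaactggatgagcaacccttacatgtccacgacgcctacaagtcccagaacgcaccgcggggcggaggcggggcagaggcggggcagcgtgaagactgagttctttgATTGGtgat
Psmd8: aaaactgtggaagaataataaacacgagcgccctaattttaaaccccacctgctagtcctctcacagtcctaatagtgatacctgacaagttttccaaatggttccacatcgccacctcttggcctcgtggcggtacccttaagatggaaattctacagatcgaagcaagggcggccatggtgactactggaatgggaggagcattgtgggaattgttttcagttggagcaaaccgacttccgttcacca
Psmd9: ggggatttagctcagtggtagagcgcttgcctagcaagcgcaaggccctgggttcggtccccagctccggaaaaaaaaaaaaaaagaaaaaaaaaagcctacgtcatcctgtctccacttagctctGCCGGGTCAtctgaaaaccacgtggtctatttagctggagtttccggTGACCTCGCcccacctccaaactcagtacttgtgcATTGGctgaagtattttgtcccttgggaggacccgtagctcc
These are chr20:4657032-4657281, chr20:4668750-4668999, chr19:50743293-50743542, chr2:185297202-185297451, chr1:93608690-93608939 and chr12:39018265-39018514, with Psmb9 on the plus strand and the others on the minus strand.

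Psmb8 held a TTCNNNGAA match that begins at -245 from the start site and a CCAAT match at -73, whereas the windows of Psmb9, Psmb10 and Psmd8 held none of the 3 motifs. Psmd9 held 2 matches to TGACNNNGC, at -124 and -77, and a CCAAT match at -42, and Psmd4 a CCAAT match at -9. Over all members, CCAAT was in 19 of 38 windows, compared with 34.3% of 27457 promoters of the same length. It was in 5 of 6 alpha ring windows and 1 of 3 immunoproteasome windows. TGACNNNGC was in 7 of 38 (18.4%) against 10.2% of all promoters, among them Psmb5, Psmb6, Psmd1 and Psme4. TTCNNNGAA was in 4 of 38 (10.5%) against 7.52%, and Psmd3 alone held 3 matches, at -159, -114 and -25. A match is a run of letters and not a measured binding site.

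Genes that work around the proteasome were counted in lists. Genes of all kinds passed in 8.46% of cases in heart and 68.2% in blood (41.5% higher and 26.6% lower), so a list with no call in heart, or with calls for most of its genes in blood, is near that background. In the heart none of 18 assembly and associated factors, 10 regulators of proteasome genes, 16 ubiquitin and p97 genes or 10 antigen processing genes passed in limma. At an unadjusted p below 0.05 these lists had 4, 1, 0 and 1 genes higher and 0, 0, 0 and 2 lower. Among 13 muscle ubiquitin ligases and FoxO genes, Cblb, a ligase, rose by 0.84 (SE 0.15, adjusted p = 0.016) and Traf6 fell by 0.65 (SE 0.15, adjusted p = 0.042). In blood the assembly and associated factors gave 7 rises and 5 falls of 18: the deubiquitinase Usp14 rose by 0.77 and the shuttle factor Rad23b by 1.03, and the shuttle factor Ubqln4 fell by 1.49. Regulators gave 6 rises and 2 falls of 10, with Nfe2l1, the transcription factor that restores proteasome genes after inhibition, up by 1.87 (SE 0.21, adjusted p = 0.00099) and Nfe2l2 up by 1.69 (SE 0.21, adjusted p = 0.0011). The NF-Y subunit gene Nfya fell by 1.79.

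Ubiquitin and p97 genes gave 5 rises and 4 falls of 16 in blood, and the polyubiquitin gene Ubb fell by 1.30 (adjusted p = 0.0040) while the activating enzyme Uba1 rose by 1.16. Ubb and Ubqln4 turned positive without scaling, and Ubb also after quantile normalisation. In the antigen processing list 7 of 10 rose and 1 fell in blood, with Irf1, an interferon-induced transcription factor, up by 0.98, and the chaperone gene Calr fell by 1.19 but not without scaling. Median differences in blood were 0.09 for assembly factors, 0.97 for regulators, -0.04 for ubiquitin genes and 0.75 for antigen processing, beside 0.46 over all features.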

How the data were processed

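Total RNA of 12 pools was labelled with Cy3 and hybridised to Agilent rat arrays. Per the file headers, Feature Extraction 9.5.1.1 gave the deposited intensity of each spot (processed signal), background-subtracted and detrended within the array but not scaled between arrays. The authors' value table, used as an alternative, holds normalised intensities that were put on the log2 scale here. It was normalised separately for heart and blood, per the series' design text. Here log2 intensity minus the log2 of the 75th percentile of its array was used, spots of one probe were averaged, and a probe was kept where all 3 arrays of some compared group had it well above background. Each gene was read by its brightest probe over the 12 arrays. Names came from RefSeq by accession (16336 probes), symbol (3735) or synonym (1099), and 19842 probes kept the name in the file.

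Differences were tested with limma 3.58.1 in R 4.3.3 without a block, within each tissue for the drug and over the 12 arrays for the tissue contrast and the difference between tissues. P-values were adjusted by Benjamini-Hochberg over all features, with a threshold of 0.05. Differences between paired subunits were compared by exact permutation. The fits were tested on simulated data. Same-numbered vehicle and amiodarone pools deviated with correlations of -0.17, -0.24 and 0.32 in heart and 0.08, 0.17 and 0.31 in blood, so the numbers were not taken as pairs. Alternatives were another background correction (normexp, offset 50), other scalings, filters, probe choices, slide and replicate blocks, and each pool left out. The members and lists were chosen with earlier results of these data known. Members given by pool were the catalytic and immunoproteasome subunits, the activators, and in each comparison up to 4 others per direction (2 for the tissue contrast) with the smallest p among those called. In each list up to 4 called genes were named in the same way, and some are not reported here.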

Additional observations from a re-analysis of the deposited data

Results flagged for a closer look

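For 8 members the drug difference in blood departed from that in heart by limma's test of the difference itself (blood minus heart, log2). It was -1.70 for Psmd4, -1.59 for Psmd8, -0.94 for Psmd9, -0.92 for Psmb6 and -0.94 for Psma6, and it was 0.93 for Psmd3, 0.85 for Psmd1 and 1.20 for Psme4. In blood Psmd4, Psmd8, Psmd9 and Psmb6 fell, Psmd1, Psmd3 and Psme4 rose, and Psma6, which rose in heart, was at -0.32. Of the 8, 4 passed in each of 12 fits with a pool left out, 7 in the authors' value table and 0 after normexp. A second probe gave -0.92 for Psma6, 0.74 for Psmd1 and 1.45 for Psme4.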

How the results depend on the processing

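Heart and blood were on different slides, vehicle and amiodarone blood shared slides, and blood was nearer to background. For some members the direction in the tissue and blood comparisons depended on the scaling. Member mean scaling was chosen after seeing the data. In heart, 3 members passed, beside 8.46% of features. The count was 5 after normexp (8.31% of features) or array median scaling (9.16%), and 1 after quantile normalisation (8.30%). It was 0 without scaling (4.17%), with spike-in scaling (4.98%), member mean scaling (9.36%) or no filter (0.80%). The replicate block (4.07%) and the first slide alone (1.61%) also gave 0. With a pool left out the count ranged from 0 to 2. In blood, 23 passed, beside 68.2% of features. The count was 0 after normexp (7.86% of features), and 38 without scaling (77.3%) or with spike-in scaling (71.7%). It was 12 in the authors' value table (57.5%) and 7 with member mean scaling (55.4%), with 9 to 23 when a pool was left out. For the difference between the tissues 8 passed, beside 46.6% of features. The count was 0 after normexp (8.97% of features), 37 without scaling (63.9%) and 31 with spike-in scaling (52.2%). It was 15 when every array had to be well above background (59.2%), with 5 to 11 when a pool was left out. The tissue contrast gave 41, beside 81.9% of features, and 39 to 41 with a pool left out.

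With the replicate block a number is shared but the pairing is not given. In that setting 0 members passed in heart, 21 in blood, 9 for the difference between tissues and 41 for the tissue contrast. The shares of all features were 4.07%, 69.1%, 46.0% and 81.8%.

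Psmb8 minus Psmb5 ranged with a pool left out from -0.45 to -0.00033 in heart, 0.37 to 0.95 in blood and 3.84 to 4.43 between tissues. Psmb9 minus Psmb6 ranged from -0.42 to -0.01, 1.28 to 1.64 and 1.62 to 1.98, and its tissue value was 1.43 after normexp. Psmb10 minus Psmb7 ranged from -0.43 to 0.02, 0.08 to 0.35 and 3.61 to 3.94. Its blood value was 0.59 in the authors' value table and 0.59 after quantile normalisation, and its tissue value 3.33 after normexp.

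Signs turned as follows, and the cause was not tested. In blood without scaling Calr was 0.39, Fbxo21 0.71, Foxo4 0.25, Psma6 1.26, Psmb5 1.53, Psmb6 0.69, Psmd4 0.27, Psmd8 0.21, Psmd9 0.46, Ubb 0.28 and Ubqln4 0.093. With spike-in scaling Calr was 0.065, Fbxo21 0.38, Psma6 0.93, Psmb5 1.20, Psmb6 0.36 and Psmd9 0.13, and Ubb was 0.10 after quantile normalisation. For blood minus heart, Psma6 was 0.78 without scaling and 0.26 with spike-in scaling, Psmb5 1.64 and 1.12, Psmb6 0.81 and 0.28, and Psmd9 0.78 and 0.26, while Psmd4 was 0.021 and Psmd8 0.14 without scaling. For heart minus blood, Psmb10 was 1.1 without scaling and 0.85 with spike-in scaling, Psmb9 1.26 and 1.01, Psmd4 0.59 and 0.34, Psmd8 1.23 and 0.98, and Psmd9 0.46 and 0.21. In the authors' value table Psmb10 was 0.30, Psmb9 0.41 and Psmd8 0.27, and after normexp Psmb9 was 0.074. With member mean scaling Psma6 was -0.98, Psmb6 -0.65, Psme2 -0.84 and Psme4 -0.23.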

Other observations

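Over the 12 arrays the genes whose level ran most like that of Psmb8 were Septin1 (Pearson r = 0.995), Sash3 (0.995), Ctsz, Arpc1b and Pstpip1. For Psmb9 the most like gene was Psmb10 (r = 0.991), followed by Hdc, Tmem40, Shkbp1 and Trem1. For Psmb10 they were Fcar (r = 0.993), Psmb9, Ciita, Cd3e and Il1rn. These correlations are descriptions over arrays of both tissues, which share the difference between heart and blood.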
